A study of Mus musculus with 28 samples.

Results

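Tuft cells are rare chemosensory cells of the intestinal epithelium, and 9 genes that mark them are described here across sorted mouse intestinal cells: Dclk1, Avil, Pou2f3, Gfi1b, Trpm5, Rgs13, Alox5ap, Ptgs1 and Il25. The genes were taken by name as tuft cell markers and matched by symbol, and all 9 were found among the 54354 genes of the table. The mice carried an Lgr5-GFP reporter, so that cells expressing Lgr5, a receptor gene of intestinal stem cells, fluoresce green. Cells labelled small intestine were sorted as Lgr5-high or Lgr5-low, from mice on a cystine diet (cystine is cysteine's oxidised, disulfide-linked dimer) or a control diet. The 4 groups, of 7 libraries each, are Lgr5-high cystine, Lgr5-high control, Lgr5-low cystine and Lgr5-low control, and all of them share the reporter genotype. The reporter sorts cells by Lgr5 and does not select tuft cells, so that every tuft cell transcript here comes from a mixed population. The sources used here give no age, cystine dose or feeding time, and do not say if each library is a different mouse. The p-values therefore measure the spread between these libraries, which may in part be technical.

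Tuft cells sense the contents of the gut, and in the mouse they respond to the metabolite succinate from protists through a taste-like cascade that ends in opening of the cation channel TRPM5. Once activated they release interleukin 25 and cysteinyl leukotrienes, which act on type 2 innate lymphoid cells of the tissue below. Those cells answer with interleukin 13, which drives crypt progenitors toward the tuft and goblet fates. The transcription factor POU2F3 is required for tuft cells to form. Some tuft cell genes, above all those of eicosanoid synthesis, are also expressed by macrophages, mast cells and platelets.

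In these data Lgr5-high cells held less RNA of 2 canonical tuft cell genes than Lgr5-low cells. Averaged over the diets, 2 of the 8 genes that could be tested were lower in Lgr5-high cells. They were Dclk1, the kinase most used as a tuft cell marker, at 3.42 ± 3.42 against 9.38 ± 5.35 CPM, and Trpm5, the channel gene, at 2.37 ± 2.46 against 7.59 ± 5.22 CPM (SD, n = 14 libraries each). CPM are counts scaled to a common library total with edgeR's TMM factors. Of the 12495 genes tested, 8.8% passed in this comparison, 3.75% higher and 5.05% lower. The cystine diet moved none of the 8 genes past the threshold in either population. In bulk RNA, fewer cells of a type and less RNA per cell cannot be told apart, which holds for every level given here.

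Motifs of tuft cell transcription factors were looked for in every promoter found. Shown are the promoters of the genes that passed, and that of Avil because no other promoter held a match. The RefSeq table used here matched 6 of the 9 genes to a promoter (250 bases before to 50 after the start of the gene), 7 promoters in all, since Dclk1 has an upstream and an internal start. The Dclk1 promoters lie at chr3:55242114-55242413 and chr3:55461478-55461777 on the plus strand, the Avil promoter at chr10:127000459-127000758 on the plus strand and the Trpm5 promoter at chr7:143094593-143094892 on the minus strand (GRCm38.p6). They read 5′ to 3′, with motif matches in capitals:
Dclk1, upstream start: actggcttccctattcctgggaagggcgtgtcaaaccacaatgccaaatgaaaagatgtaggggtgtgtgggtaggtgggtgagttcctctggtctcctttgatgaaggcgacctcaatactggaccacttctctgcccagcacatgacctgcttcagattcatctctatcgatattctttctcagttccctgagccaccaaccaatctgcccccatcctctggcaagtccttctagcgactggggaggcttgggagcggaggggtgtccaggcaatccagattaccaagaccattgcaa
Dclk1, internal start: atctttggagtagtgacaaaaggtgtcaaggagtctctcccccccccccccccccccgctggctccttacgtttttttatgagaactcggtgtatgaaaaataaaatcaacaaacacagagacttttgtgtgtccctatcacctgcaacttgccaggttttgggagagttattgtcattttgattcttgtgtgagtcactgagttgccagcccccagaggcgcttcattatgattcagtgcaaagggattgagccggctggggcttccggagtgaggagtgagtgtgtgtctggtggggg
Trpm5: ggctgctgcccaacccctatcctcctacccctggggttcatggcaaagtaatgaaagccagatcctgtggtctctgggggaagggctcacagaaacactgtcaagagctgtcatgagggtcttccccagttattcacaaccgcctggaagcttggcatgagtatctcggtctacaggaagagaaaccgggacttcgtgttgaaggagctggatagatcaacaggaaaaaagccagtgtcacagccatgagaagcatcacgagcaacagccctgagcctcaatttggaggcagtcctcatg
Avil: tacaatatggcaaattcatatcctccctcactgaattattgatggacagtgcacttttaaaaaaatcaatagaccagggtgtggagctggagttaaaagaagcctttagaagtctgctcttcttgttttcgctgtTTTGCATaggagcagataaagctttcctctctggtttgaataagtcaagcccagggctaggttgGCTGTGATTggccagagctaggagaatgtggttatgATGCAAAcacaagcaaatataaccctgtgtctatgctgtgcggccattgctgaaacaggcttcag

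Motifs were searched on both strands. The octamer ATGCAAAT, the element bound by POU factors such as POU2F3, was in none of the 7 promoters, and 570 of 32851 mouse promoters of the same length (1.74%) hold it. Its first 7 letters, ATGCAAA, a search added after the sequences had been seen, matched 2 places in the Avil promoter, at positions -15 (plus strand) and -115 (minus strand) from the start. That motif is in 4.63% of promoters, and every octamer match is also a match of it. The GFI1 family core AATCACNGC matched the Avil promoter once, at position -51 on the minus strand, and is in 0.919% of promoters. The TATA motif TATAAA, in 13.6% of promoters, was in none of the 7. These matches are letters in a window and say nothing of binding.

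Total counts ranged from 2.75 to 21.5 M (mega) per library. Lgr5-high cystine libraries were the shallowest, at 6.84 ± 4.40 M against 14.8 ± 5.80 M in Lgr5-high control libraries (SD, n = 7), and Lgr5-low libraries averaged 13.6 ± 6.24 M on cystine and 8.53 ± 5.3 M on control diet. In all, 7 libraries held under 5 M counts, 3 of them Lgr5-high cystine. A limit of 3 counts corresponded to between 0.124 and 1.11 CPM, depending on the library, and covers counting error only. The summed level of 5 stem cell markers, Lgr5, Olfm4, Ascl2, Smoc2 and Axin2, ran from 3006 to 7033 CPM in Lgr5-high libraries and from 608 to 2375 CPM in Lgr5-low libraries, without overlap. The tissue label is small intestine but the extraction text speaks of organoids, and which is right could not be settled here. Transcripts of 14 macrophage markers stood apart in 6 of the 7 Lgr5-high cystine libraries, where they summed to between 211 and 693 CPM. Replicate 1 had 24.7 CPM, and the highest sum in any other group was 151 CPM, in Lgr5-low cystine. These sums are given again beside the eicosanoid genes.

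**Figure D1:**
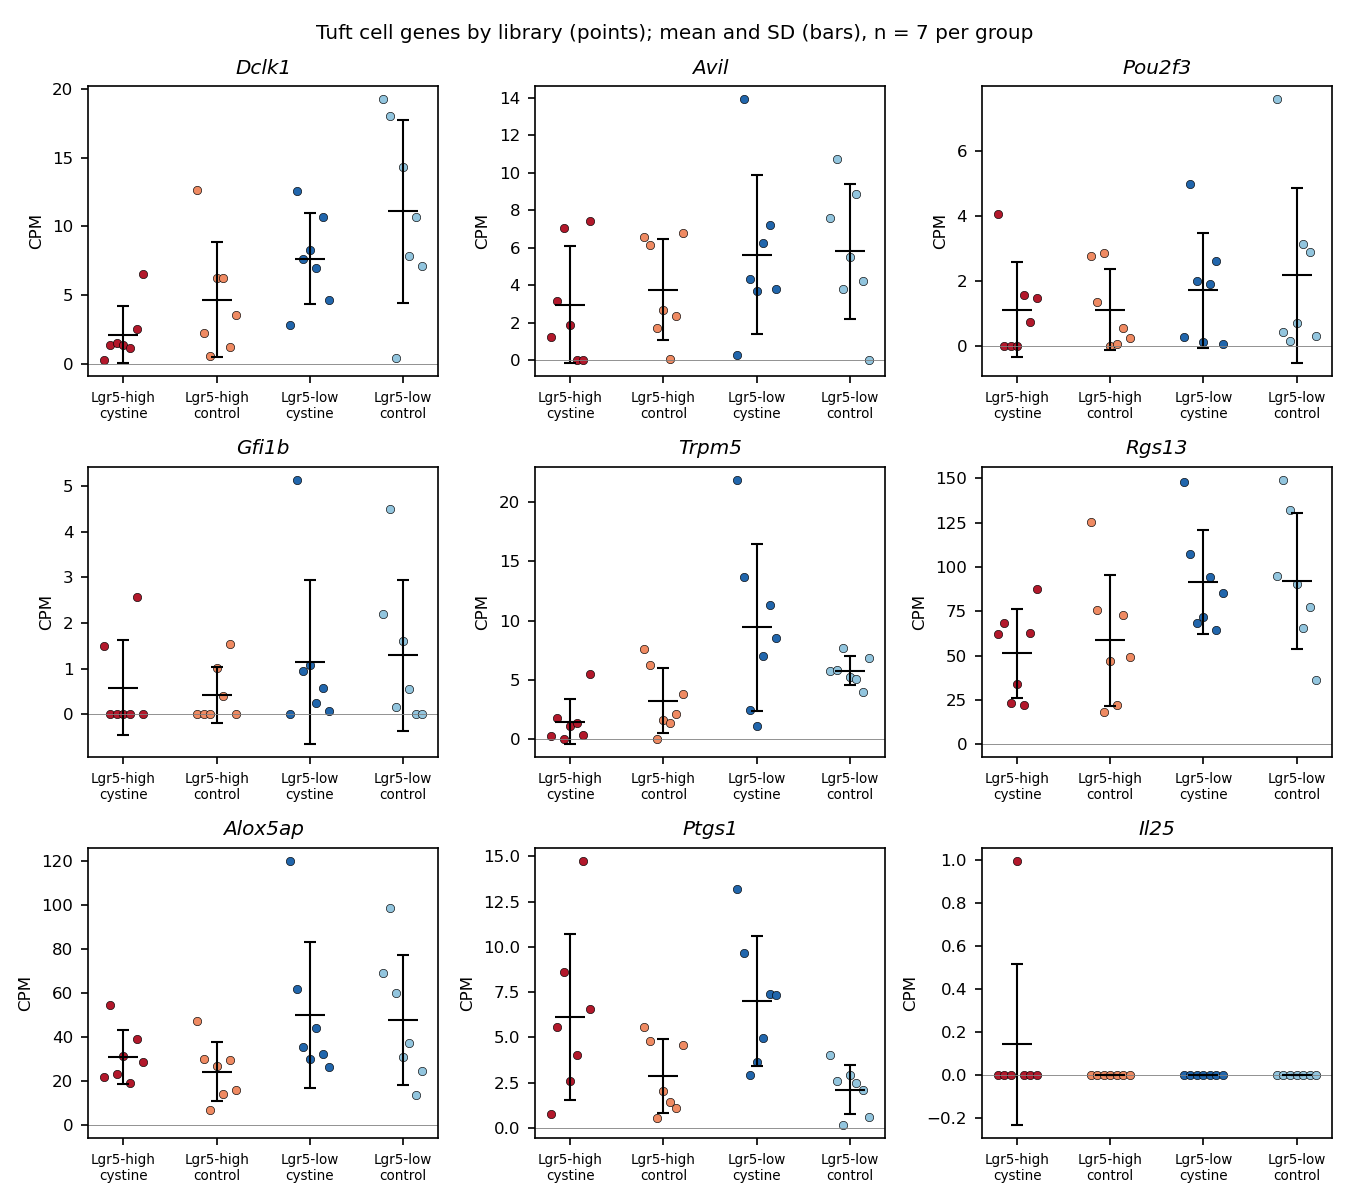
Level of each of the 9 tuft cell genes in CPM (vertical axis, a separate scale per gene) in the 28 libraries (points), by group, with mean and SD (bars, n = 7 per group). Dclk1, Trpm5, Rgs13 and Alox5ap sit lower in most Lgr5-high libraries, Ptgs1 has its highest levels in cystine libraries, and Il25 was counted in 1 library.

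Pou2f3 and Gfi1b encode transcription factors of tuft cells. Pou2f3, on chromosome 9 (43123939 to 43210369, minus strand, GRCm38), had a lowest, median and highest level of 0, 0.737 and 4.07 CPM in Lgr5-high cystine libraries and of 0, 0.547 and 2.85 CPM in Lgr5-high control libraries. In Lgr5-low cystine libraries these values were 0.0693, 1.90 and 4.98 CPM, and in Lgr5-low control libraries 0.152, 0.713 and 7.59 CPM. The groups overlapped widely, and the gene was at 0 in 4 of the 28 libraries, all of them Lgr5-high. Libraries under the limit of 3 counts were in both populations. They were 4 of 7 Lgr5-high cystine, 2 of 7 Lgr5-high control, 3 of 7 Lgr5-low cystine and 3 of 7 Lgr5-low control libraries. The log2 fold change of Lgr5-high over Lgr5-low cells, averaged over diets, was -0.77 ± 0.77 (SE, edgeR adjusted p = 0.621), with a 95% interval from -2.32 to 0.78.

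Gfi1b, which also acts in erythroid cells and megakaryocytes, lies on chromosome 2 (28609450 to 28621982, minus strand). It had no counts in 5 of 7 Lgr5-high cystine libraries, 4 of 7 Lgr5-high control, 1 of 7 Lgr5-low cystine and 2 of 7 Lgr5-low control libraries. Its highest levels were 2.58 and 1.54 CPM in the Lgr5-high groups and 5.13 and 4.50 CPM in the Lgr5-low groups, each pair with cystine first. The averaged log2 fold change was -1.27 ± 0.94 (edgeR adjusted p = 0.469, interval -3.17 to 0.63). Its biological coefficient of variation was 1.67, against a median of 0.543 over all tested genes. At this spread a difference of this size did not pass, which does not show equal levels.

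Dclk1 encodes a microtubule-associated kinase and lies on chromosome 3 (55242364 to 55539068, plus strand). Its lowest, median and highest levels were 0.313, 1.40 and 6.58 CPM in Lgr5-high cystine and 0.601, 3.595 and 12.7 CPM in Lgr5-high control libraries. In Lgr5-low cystine libraries they were 2.87, 7.61 and 12.6 CPM, and in Lgr5-low control libraries 0.454, 10.7 and 19.2 CPM. Of 14 Lgr5-high libraries, 13 lay below the Lgr5-low median, although the populations overlapped: Lgr5-high control replicate 1 had 12.7 CPM and Lgr5-low control replicate 3 had 0.454 CPM. The averaged log2 fold change was -1.57 ± 0.43 (edgeR adjusted p = 0.0146, interval -2.44 to -0.71). It kept its direction and stayed past the threshold without any single library (-1.92 to -1.48). Libraries fell into a female and a male class by their Xist level, with 9 female and 5 male libraries in each population. The male class was replicates 1 to 3 of each control group and replicates 1 and 2 of each cystine group. Sex class therefore cannot be told apart from replicate order. Within the female class the change was -1.38 (adjusted p = 0.0139), and within the male class it was -2.38 and did not pass (adjusted p = 0.235).

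Avil encodes advillin, an actin-regulating protein of the villin family that marks tuft cell microvilli, and lies on chromosome 10 (127000709 to 127020994, plus strand). Its lowest, median and highest levels were 0, 1.87 and 7.43 CPM in Lgr5-high cystine and 0.0649, 2.67 and 6.76 CPM in Lgr5-high control libraries, against 0.287, 4.31 and 13.9 CPM in Lgr5-low cystine and 0, 5.48 and 10.7 CPM in Lgr5-low control libraries. Both populations ran down to 0 or near it, and 5 of 14 Lgr5-high libraries lay above the Lgr5-low median. The averaged log2 fold change of -0.80 ± 0.55 did not pass (edgeR adjusted p = 0.423, interval -1.91 to 0.31).

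Trpm5, on chromosome 7 (143069153 to 143094642, minus strand), encodes the channel that depolarises the cell at the end of the chemosensory cascade. Its lowest, median and highest levels were 0, 1.12 and 5.52 CPM in Lgr5-high cystine and 0, 2.14 and 7.59 CPM in Lgr5-high control libraries. In Lgr5-low cystine libraries they were 1.14, 8.52 and 21.8 CPM, and in Lgr5-low control libraries 3.97, 5.74 and 7.73 CPM. Again 13 of 14 Lgr5-high libraries lay below the Lgr5-low median, and on cystine diet 7 of 7 lay below the median of their Lgr5-low counterparts. The SD was 7.06 CPM in Lgr5-low cystine and 1.22 CPM in Lgr5-low control libraries, the most uniform group of this gene. The averaged log2 fold change was -1.75 ± 0.50 (edgeR adjusted p = 0.0214, interval -2.77 to -0.74), and it did not pass without the libraries under 5 M counts (-1.52, adjusted p = 0.0951) or within the female (-1.53, adjusted p = 0.0613) or male class (-2.46, adjusted p = 0.195).

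Rgs13 encodes a regulator of G protein signalling and lies on chromosome 1 (144138654 to 144177372, minus strand). Its lowest, median and highest levels were 22.1, 62.1 and 87.4 CPM in Lgr5-high cystine and 18.3, 49.2 and 125.3 CPM in Lgr5-high control libraries, against 64.4, 85.4 and 148 CPM in Lgr5-low cystine and 36.4, 90.6 and 149 CPM in Lgr5-low control libraries. On cystine diet 5 of 7 Lgr5-high libraries lay below every Lgr5-low library, and over both diets 13 of 14 lay below the Lgr5-low median. It had the lowest coefficient of variation of the 8 tested genes, 0.466. The averaged log2 fold change was -0.75 ± 0.26 and did not pass (edgeR adjusted p = 0.0675, interval -1.28 to -0.22). It did pass with DESeq2 (-0.73, adjusted p = 0.0453), limma-voom (-0.94, adjusted p = 0.00393), a sex term (-0.72, adjusted p = 0.0408) and without libraries under 5 M counts (-0.81, adjusted p = 0.0408). Leaving out 1 library also brought it past the threshold for Lgr5-low control replicate 7 (adjusted p = 0.0414), Lgr5-high control replicate 1 (0.0166) and Lgr5-high cystine replicate 7 (0.0424).

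Alox5ap encodes the protein that presents arachidonic acid to 5-lipoxygenase, the first step toward leukotrienes, and lies on chromosome 5 (149264767 to 149288153, plus strand). Its lowest, median and highest levels were 19.2, 28.6 and 54.5 CPM in Lgr5-high cystine and 6.76, 26.9 and 47.1 CPM in Lgr5-high control libraries, against 26.3, 35.3 and 120 CPM in Lgr5-low cystine and 13.9, 37.4 and 98.6 CPM in Lgr5-low control libraries. The populations overlapped, and 11 of 14 Lgr5-high libraries were under the median of the Lgr5-low ones. The averaged log2 fold change was -0.83 ± 0.28 (edgeR adjusted p = 0.0642, interval -1.41 to -0.25) and did not pass. It passed with DESeq2 (adjusted p = 0.0405), a sex term (0.0442) and without libraries under 5 M counts (0.0449). It also passed without Lgr5-low control replicate 6 (0.0312), Lgr5-high control replicate 1 (0.0308) or Lgr5-high cystine replicate 2 (0.0434).

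Ptgs1 encodes cyclooxygenase 1, which starts prostaglandin synthesis, and lies on chromosome 2 (36230426 to 36252272, plus strand). Unlike the other 7 tested genes, it had a positive averaged log2 fold change of Lgr5-high over Lgr5-low cells, 0.09 ± 0.42 (edgeR adjusted p = 0.939, interval -0.75 to 0.94). That sign turned with limma-voom (-0.20), without libraries under 5 M counts (-0.38), within the male class (-0.63) and without any of 4 single libraries. Its levels in each group are given with the diet comparison.

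Il25, on chromosome 14 (54932695 to 54935837, plus strand), encodes interleukin 25, the cytokine output of tuft cells. It had 8 counts, 0.997 CPM, in Lgr5-high cystine replicate 4 and 0 counts in the other 27 libraries. It was not tested for that reason. A count of 0 allows up to the limit of 3 counts in each of those libraries, so that low expression in any group was not detectable at this depth.

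Per kilobase of exon, the order of levels over the 28 libraries began with Rgs13 at 44.4 ± 21.96 CPM per kb (SD) and Alox5ap at 27.0 ± 17.7. Avil followed at 1.34 ± 1.03, Ptgs1 at 1.17 ± 0.943, Trpm5 at 0.778 ± 0.752, Pou2f3 at 0.496 ± 0.592, Gfi1b at 0.469 ± 0.732, Dclk1 at 0.418 ± 0.350 and Il25 at 0.0335 ± 0.177 CPM per kb. Of these neighbours in the order, Alox5ap and Avil, and Dclk1 and Il25, were further apart than the larger of their SDs, and the others were not. The value of Dclk1 is divided by the union of all its annotated exons, 15.3 kb, which lowers it.

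The population comparison rests on different libraries on each diet. On cystine diet 1 of the 8 tested genes, Trpm5, was lower in Lgr5-high cells, where 2.64% of all genes passed (1.1% higher and 1.54% lower), and all 8 log2 fold changes were negative (median -0.89, against -0.04 over all genes). Trpm5 averaged 1.48 ± 1.89 CPM in Lgr5-high cystine and 9.41 ± 7.06 CPM in Lgr5-low cystine libraries (SD, n = 7 each; log2 fold change -2.66 ± 0.74, edgeR adjusted p = 0.0418). That call was lost without any 1 of 10 libraries, Lgr5-low cystine replicates 1, 2, 6 and 7 and Lgr5-high cystine replicates 1 to 6 (adjusted p from 0.0643 to 0.0857). It was also lost without libraries under 5 M counts (-1.90, adjusted p = 0.242), with no low-count filter (adjusted p = 0.0520), with limma-voom (adjusted p = 0.0939), within the female class (-1.82, adjusted p = 0.201) and within the male class (-4.42, adjusted p = 0.240). Dclk1 averaged 2.15 ± 2.06 CPM in Lgr5-high cystine and 7.67 ± 3.33 CPM in Lgr5-low cystine libraries (-1.88 ± 0.62, edgeR adjusted p = 0.0972), and passed without Lgr5-low control replicate 3 (0.0497) or Lgr5-high cystine replicate 7 (0.0328).

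On control diet 0 of the 8 tested genes passed in edgeR, where 1.8% of all genes did (0.784% higher and 1.02% lower). DESeq2 called 0 as well, limma-voom called 1, Dclk1, and 2 had an unadjusted edgeR p under 0.05, Alox5ap and Dclk1. Of the 8 log2 fold changes 7 were negative, with a median of -0.91 against -0.01 over all genes. Dclk1 averaged 4.69 ± 4.16 CPM in Lgr5-high control and 11.1 ± 6.64 CPM in Lgr5-low control libraries (-1.27 ± 0.59, edgeR adjusted p = 0.341), and Trpm5 3.26 ± 2.78 and 5.76 ± 1.22 CPM (-0.85 ± 0.68, adjusted p = 0.681). Over both diets the median of the 8 genes was -0.81, against -0.02 over all tested genes, with 7 of 8 negative. None of the 8 had groups that were free of overlap in any comparison. The share of all tested genes free of overlap is not given here, so that this count cannot be read against it.

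**Figure D2:**
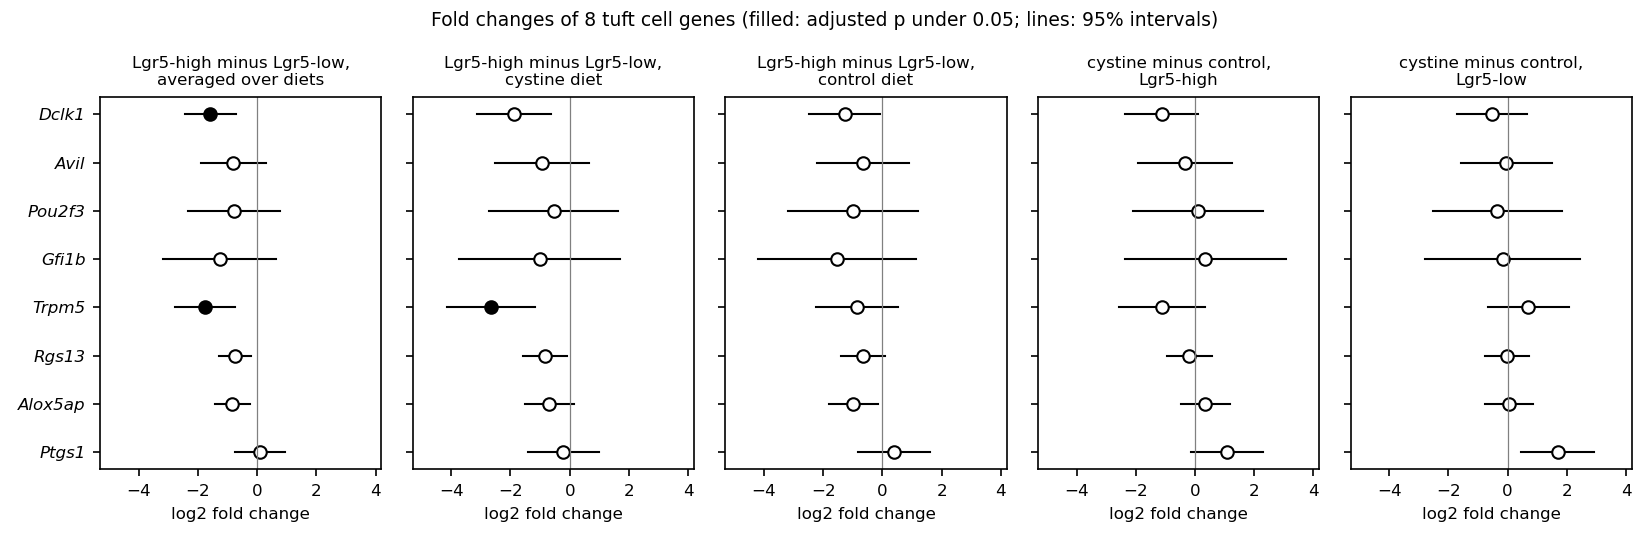
Log2 fold change (horizontal axis) of 8 tuft cell genes in 5 comparisons, with 95% intervals as lines; filled points passed the edgeR threshold of an adjusted p of 0.05. In the 3 comparisons of Lgr5-high with Lgr5-low cells nearly all points lie left of 0, and in the 2 diet comparisons they lie on both sides, with Ptgs1 furthest right.

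Markers of other cell classes differed between the populations as well, in both directions. The summed level of 9 enteroendocrine markers was between 52.6 and 206.7 CPM in Lgr5-high libraries and between 231 and 756 CPM in Lgr5-low libraries, without overlap, and 7 of 7 goblet cell markers were lower in Lgr5-high cells. Of 8 tested enterocyte markers 3 were lower, and of 2 tested platelet markers 1 was, Gp1bb (17.8 ± 8.004 CPM in Lgr5-high and 31.0 ± 8.88 CPM in Lgr5-low cells, -0.80, edgeR adjusted p = 0.0096). The other, Pf4, was at 1.68 ± 1.87 and 0.669 ± 0.518 CPM. Its change was 0.90 over both diets, 2.11 on cystine and -0.31 on control diet, and did not pass in any of them. Higher in Lgr5-high cells were 11 of 13 macrophage markers and 5 of 5 stem cell markers. The median log2 fold change of the macrophage markers was 1.61 over both diets, 2.50 on cystine and 0.73 on control diet. The part of these classes in the levels of the tuft cell genes was not tested. The 9 tuft cell genes summed to a median of 92.3 CPM in Lgr5-high cystine, 87.2 in Lgr5-high control, 136.4 in Lgr5-low cystine and 152 CPM in Lgr5-low control libraries. These sums overlapped, at 30.7 to 207.6 CPM in Lgr5-high and 75.8 to 306.5 CPM in Lgr5-low libraries, and are carried mostly by Rgs13 and Alox5ap.

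A wider list of 54 tuft cell genes, all in the table and 40 of them tested, was read in the averaged comparison. Of the 40, 32 had a negative log2 fold change, 5 were lower and 2 higher in Lgr5-high cells (17.5%, against 8.8% of all genes). The median was -0.64. Among 4 enzymes of eicosanoid synthesis 3 passed. Ltc4s, leukotriene C4 synthase, had lowest, median and highest levels of 2.31, 4.18 and 9.47 CPM in Lgr5-high cystine and 3.83, 6.91 and 14.2 CPM in Lgr5-high control libraries, against 7.99, 11.5 and 40.5 CPM in Lgr5-low cystine and 7.41, 14.4 and 31.1 CPM in Lgr5-low control libraries. The Lgr5-high levels were lower (log2 fold change -1.47 ± 0.28, edgeR adjusted p = 0.000521), and the gene passed on cystine diet alone too (-1.58 ± 0.40, adjusted p = 0.0226). That call on cystine diet was lost without Lgr5-low cystine replicate 1 or Lgr5-high cystine replicate 2, 5 or 7. It was also lost without libraries under 5 M counts and within either sex class. The Lgr5-high median, 5.84 CPM, was below every Lgr5-low library. The populations still overlapped, since the highest Lgr5-high level was above the Lgr5-low median of 13.4 CPM.

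Alox5, which encodes 5-lipoxygenase, was scarce in Lgr5-high cells. It averaged 0.151 ± 0.288 CPM there, with 0 counts in 4 of 7 cystine and 4 of 7 control libraries, against 1.87 ± 1.68 CPM in Lgr5-low cells. Every Lgr5-low library had counts, but 1 of 7 on cystine and 2 of 7 on control diet were under the limit of 3 counts. In Lgr5-high cells 7 of 7 cystine and 4 of 7 control libraries were under it, so that the change rests on values near the limit. The log2 fold change was -3.68 ± 0.84 (edgeR adjusted p = 0.00346). It did not pass without libraries under 5 M counts (-3.07, adjusted p = 0.0543), within the female class (-2.58, adjusted p = 0.105) or within the male class (-6.56, adjusted p = 0.0508). Pla2g4a, the phospholipase that frees arachidonic acid from membranes, went the other way, at 32.0 ± 8.81 CPM in Lgr5-high and 16.5 ± 7.56 CPM in Lgr5-low cells (0.95 ± 0.21, edgeR adjusted p = 0.00205). On cystine diet its Lgr5-high libraries, 25.4 to 36.4 CPM, all lay above its Lgr5-low libraries, 11.01 to 20.7 CPM. The share of all tested genes that separate in this way is not given here. On that diet Pla2g4a did not pass in the reported edgeR fit. It did pass there with DESeq2, limma-voom, a sex term, only the compared groups and within the female class. Hpgds, a prostaglandin D synthase, had 2.16 ± 1.96 against 5.47 ± 3.99 CPM and did not pass (-1.42, adjusted p = 0.0702). It passed with DESeq2 (0.0322), with limma-voom (0.0314) and without any 1 of 4 libraries, Lgr5-high cystine replicate 6, Lgr5-high control replicate 6, Lgr5-low cystine replicate 2 and Lgr5-low control replicate 1 (0.0337 to 0.0473).

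In 2 further role groups, 14.3% of the receptors and surface proteins and 30% of the cytoskeletal and other marker genes passed, against 8.8% of all genes. Of 7 tested receptors and surface proteins, Il13ra1, a subunit of the interleukin 13 receptor, was lower in Lgr5-high cells at 10.02 ± 4.98 against 17.8 ± 6.32 CPM (-0.85 ± 0.25, edgeR adjusted p = 0.0263), while Ly6g6f (-1.25, adjusted p = 0.308) and Cd24a (-0.18, adjusted p = 0.376) did not pass. Of 10 cytoskeletal and other marker genes 3 passed. The keratin gene Krt23 was higher, at 6.89 ± 4.48 against 2.18 ± 1.55 CPM (1.69 ± 0.47, edgeR adjusted p = 0.0173). Sh2d7 (1.79 ± 1.17 against 4.81 ± 4.05 CPM, -1.48, adjusted p = 0.0472) and Sh2d6 (3.07 ± 2.85 against 7.19 ± 2.73 CPM, -1.31, adjusted p = 0.0486), which encode adaptor proteins with an SH2 domain, were lower. Both were close to the threshold. Sh2d7 was lost in 7 other settings and without any 1 of 16 libraries (adjusted p up to 0.120), namely Lgr5-high cystine replicates 1, 4, 5 and 7, Lgr5-high control replicates 2 to 6, Lgr5-low cystine replicates 1 and 2 and Lgr5-low control replicates 1 to 5. Sh2d6 was lost in 4 other settings and without any 1 of 20 libraries (up to 0.0840), namely Lgr5-high cystine replicates 3 to 7, Lgr5-high control replicates 1, 3, 4 and 5, Lgr5-low cystine replicates 1 to 6 and Lgr5-low control replicates 2, 4, 5, 6 and 7. Pla2g4a, Il13ra1 and Krt23 were lost within the male class (adjusted p = 0.258, 0.445 and 0.559) and in no other setting.

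Of 5 tested chemosensory genes 0 passed in edgeR, and 1 had an unadjusted p under 0.05, the phospholipase gene Plcg2 (-0.75, adjusted p = 0.179, 0.0326 with limma-voom and 0.0485 without Lgr5-high cystine replicate 6). The calcium channel genes Itpr3 (-0.56, adjusted p = 0.297) and Itpr2 (-0.52, adjusted p = 0.550) did not pass. Of 3 transcription factors and coactivators 0 passed and 1 had an unadjusted p under 0.05, Spib (-1.42, adjusted p = 0.123), while Pou2af2 (-0.80, adjusted p = 0.354) and Pou2af3 (0.51, adjusted p = 0.602), coactivators of POU2F3, did not. Of 11 signalling genes shared with blood cells 10 had a negative change, 0 passed in edgeR and 5 had an unadjusted p under 0.05. The lowest of those were the kinase gene Bmx (-1.08, adjusted p = 0.0611), the phosphoinositide kinase subunit gene Pik3r5 (-1.80, adjusted p = 0.0631) and the exchange factor gene Vav1 (-1.31, adjusted p = 0.132). DESeq2 and limma-voom called each of these 3. Bmx also passed without Lgr5-low control replicate 7 (0.0234) or Lgr5-high control replicate 1 (0.00865), and Vav1 without Lgr5-high cystine replicate 6 (0.0237). Pik3r5 passed without any 1 of 5 libraries, Lgr5-high cystine replicate 2, Lgr5-high control replicate 7, Lgr5-low cystine replicate 1 and Lgr5-low control replicates 2 and 3 (0.0196 to 0.0458). In the whole wider list DESeq2 called 11 of the 52 genes it tested and limma-voom 14 of 40. Over all genes DESeq2 called 1595 of 24107 and limma-voom 2375 of 12495, against 1100 of 12495 in edgeR.

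**Figure D3:**
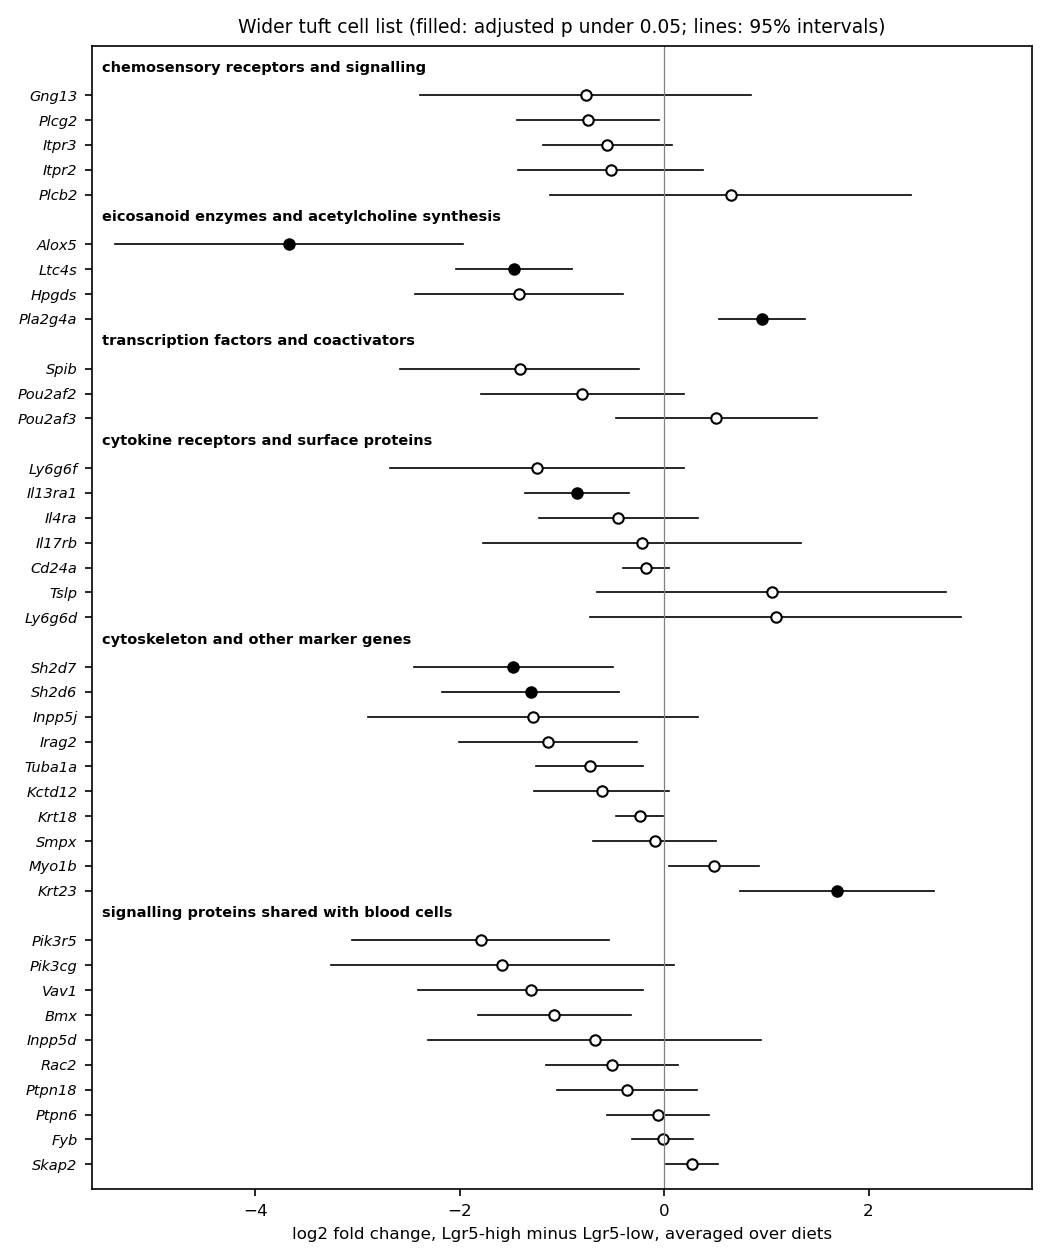
Log2 fold change of Lgr5-high over Lgr5-low cells, averaged over diets (horizontal axis), for tested genes of the wider tuft cell list grouped by role, with 95% intervals as lines and filled points where edgeR's adjusted p was under 0.05. Most points lie left of 0, with Alox5 furthest left, and Krt23 and Pla2g4a are filled on the right.

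The cystine diet was compared with the control diet within each population. In Lgr5-high cells 0 of the 8 genes passed in edgeR, DESeq2 or limma-voom, 0 had an unadjusted edgeR p under 0.05, and 0.168% of all genes passed. In Lgr5-low cells 0 passed with the same 3 tools, 1 had an unadjusted edgeR p under 0.05, Ptgs1, and 0% of all genes passed. The medians of the 8 genes, -0.04 in Lgr5-high and -0.03 in Lgr5-low cells, lay near those of all genes, -0.02 and -0.0041. A p that misses the threshold does not show that the diets gave equal levels, and the intervals were wide. For Dclk1 in Lgr5-high cells (2.15 ± 2.06 CPM on cystine, 4.69 ± 4.16 CPM on control diet) the change was -1.13 with an interval from -2.38 to 0.12, and for Trpm5 (1.48 ± 1.89 and 3.26 ± 2.78 CPM) -1.11 with an interval from -2.57 to 0.34.

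Among the 8 genes Ptgs1 had the lowest p in the diet comparison of Lgr5-low cells. Its lowest, median and highest levels were 2.91, 7.34 and 13.2 CPM in Lgr5-low cystine and 0.152, 2.47 and 4.05 CPM in Lgr5-low control libraries. All 7 cystine libraries lay above the control median, and 5 of 7 above every control library. The log2 fold change was 1.69 ± 0.61 (interval 0.47 to 2.92), with an unadjusted p of 0.00803 from edgeR and an adjusted p = 0.9998. In Lgr5-high cells the levels were 0.782, 5.59 and 14.7 CPM on cystine and 0.526, 2.07 and 5.57 CPM on control diet, with 4 of 7 cystine libraries above every control library (1.09 ± 0.60, interval -0.12 to 2.30, edgeR adjusted p = 1). The gene thus did not pass in either population.

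Macrophage transcripts differed between the diets in Lgr5-high cells, where 8 of 13 tested macrophage markers were higher on cystine, and their summed level ran from 24.7 to 693 CPM on cystine (median 414) and from 28.7 to 62.7 CPM on control diet (median 50.1). In Lgr5-low cells 0 of 13 passed in edgeR and 4 had an unadjusted p under 0.05, with sums of 34.2 to 151 CPM on cystine (median 47.6) and 12.5 to 84.1 CPM on control diet (median 29.0). None of the 14 markers was at 0 throughout any group. In Lgr5-high cystine libraries Ptgs1 was highest in replicates 6 (14.7 CPM) and 3 (8.63 CPM), which had macrophage sums of 647 and 693 CPM, and lowest in replicate 1 (0.782 CPM), which had 24.7 CPM. Alox5ap had 23.0 CPM in replicate 3, which had the highest macrophage sum, and 21.99 CPM in replicate 1, which had the lowest, and was highest in replicate 2, at 54.5 CPM with a sum of 456 CPM. The part of macrophage RNA in these levels was not tested. The 8 mast cell markers summed to at most 12.5 CPM in any library, with Tpsb2, Ms4a2 and Cma1 at 0 in all groups. The 5 platelet markers summed to between 10 and 45.9 CPM, most of it Gp1bb, with Ppbp and Gp9 at 0. Of these Pf4 had 2.76 ± 2.04 CPM in Lgr5-high cystine and 0.587 ± 0.779 CPM in Lgr5-high control libraries (SD, n = 7 each; log2 fold change 2.30, unadjusted p = 0.0284, edgeR adjusted p = 1). The part of mast cell and platelet RNA was not tested either. The 5 markers of type 2 innate lymphoid cells summed to at most 1.33 CPM, and Gata3, Il13 and Il5 were at 0 in every library.

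**Figure D4:**
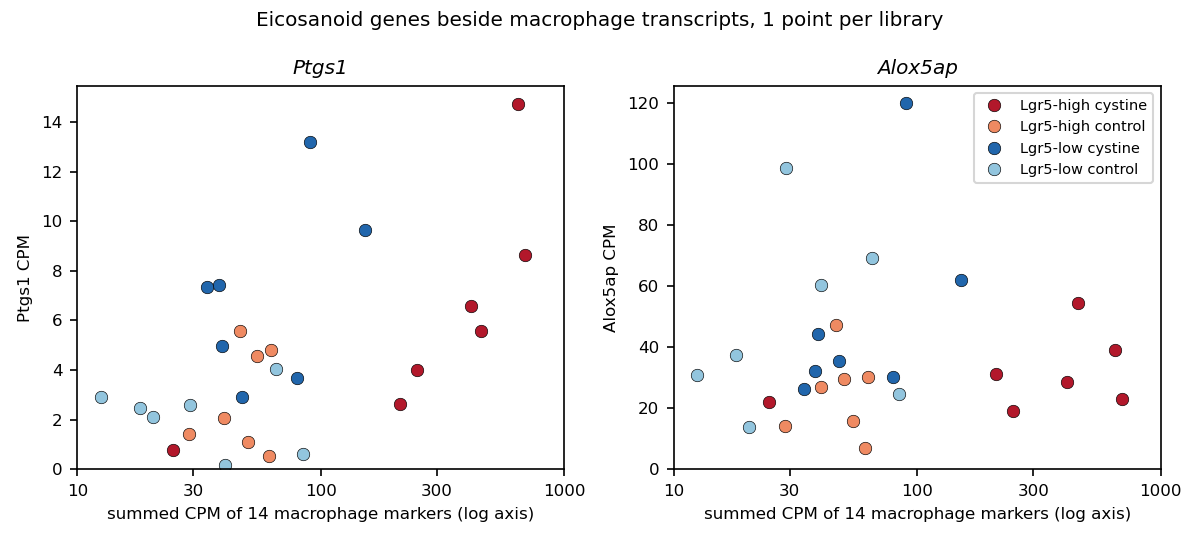
CPM of Ptgs1 (left) and Alox5ap (right) against the summed CPM of 14 macrophage markers on a log axis, 1 point per library. The Lgr5-high cystine libraries other than replicate 1 lie at sums of 211 CPM and above, and their Ptgs1 levels range from 2.62 to 14.7 CPM; Lgr5-low cystine libraries reach 13.2 CPM of Ptgs1 at sums of up to 151 CPM.

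The difference between the diet effects of Lgr5-high and Lgr5-low cells passed for 0 of the 8 genes in edgeR, DESeq2 and limma-voom, 0 had an unadjusted edgeR p under 0.05, and 0% of all genes passed in edgeR. The lowest p belonged to Trpm5, at -1.81 ± 0.99 (SE, edgeR adjusted p = 0.9998), whose diet changes were -1.11 in Lgr5-high and 0.70 in Lgr5-low cells. In the wider list 0 of 40 genes passed in either diet comparison. The gene of lowest p was Itpr2 in Lgr5-high cells, at 2.32 ± 2.11 CPM on cystine and 6.77 ± 2.97 CPM on control diet (-1.52, edgeR adjusted p = 0.997). In Lgr5-low cells it was Skap2, an adaptor gene, at 49.2 ± 4.42 CPM on cystine and 32.9 ± 6.52 CPM on control diet (0.57, edgeR adjusted p = 0.9998).

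Some pairs of the 8 tested genes varied together from library to library within groups, and most did so weakly or not at all. Deviations of log2 CPM from the group mean were correlated over the 28 libraries. Genes of a library share its depth, cell mixture and sex class, and only the group mean was removed. In both Lgr5-low groups Rgs13 and Alox5ap were higher in every male-class library than in every female-class one. In both Lgr5-high groups the classes overlapped for these genes. The part of sex class, which cannot be told apart from replicate order, in the correlations was not tested. Pearson's r was highest for Rgs13 with Alox5ap, at 0.74, followed by Dclk1 with Ptgs1 at 0.68, Trpm5 with Rgs13 at 0.60 and Trpm5 with Alox5ap at 0.54. The median over the 28 pairs was 0.215, and 8 pairs were above 0.3. Pou2f3 and Gfi1b, the genes with the fewest counts, correlated weakly with the rest, the lowest value being -0.22 for Gfi1b with Trpm5.

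**Figure D5:**
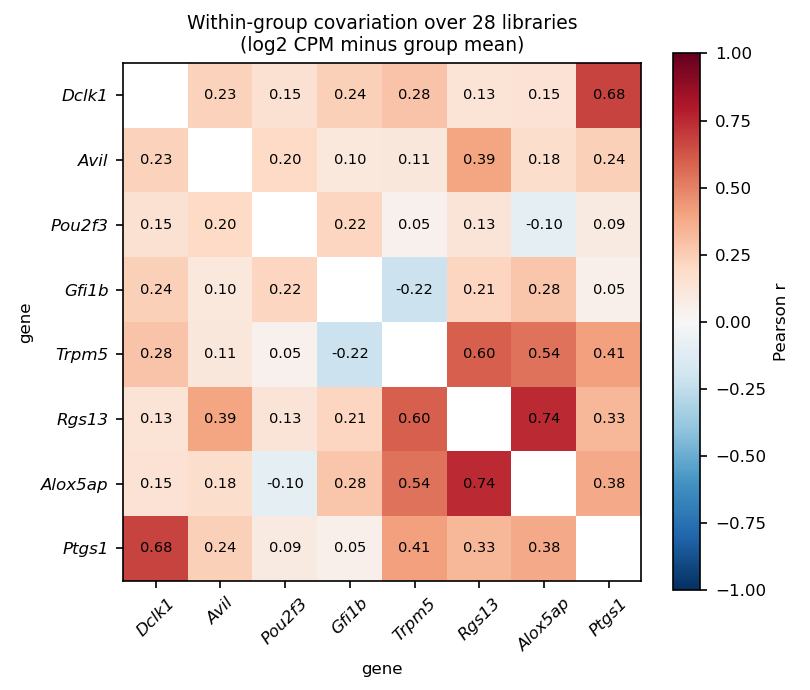
Pearson's r between pairs of 8 tuft cell genes (both axes) over 28 libraries, from log2 CPM minus the group mean; colour runs from -1 (blue) to 1 (red). The warmest cells join Rgs13, Alox5ap and Trpm5, and Dclk1 with Ptgs1.

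Of 10143 other genes with a mean of at least 2 CPM, the 10 most like the mean deviation of the 8 included Ubac1 (r = 0.74), Ppp1r21 (0.73), Ly6e (0.71), Scg5 (0.70), Ano7 (0.66), Zfp810 (0.65), Cmtm7 (0.63), 1810046K07Rik, also named Pou2af2 (0.63), and Kctd12 (0.62). The last 2 of these are on the wider tuft cell list. Of the 10, Ano7 was lower in Lgr5-high cells (log2 fold change -1.54 ± 0.43, edgeR adjusted p = 0.0173), and the other 9 did not pass in the averaged comparison. The values are a description over 28 libraries.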

How the data were processed

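The 28 libraries were stranded and poly(A)-selected, per the labels' protocols. The authors deposited gene-level estimated counts, written as whole numbers, in 1 file. Salmon 1.3.0 and build mm10 are named per the submitters' processing notes. The annotation is not given in the sources used here, nor is the way transcripts were summed. In this kind of quantification Salmon divides reads among similar transcripts by a model. Of 54354 genes 51485 (94.7%) matched GENCODE M21 (GRCm38), which gave coordinates and exon lengths. Genes without a symbol (1243) held 0.00328% to 0.0111% of a library's counts.

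The genes, lists, groups and tests were chosen with earlier results of these data known. Named were the 9 genes, those of the wider list past the threshold and up to 3 of lowest p per role, Hpgds to complete its group, and the 10 most alike in covariation. A withheld item is not reported here. Differences were tested two-sided with edgeR 4.0.16 (R 4.3.3; TMM, filterByExpr, robust quasi-likelihood, a mean per group over 28 libraries) and Benjamini-Hochberg adjustment over 12495 genes, with 0.05 as the threshold. The code was tested on simulated data. Adjusted p-values are from edgeR unless another tool is named. Log2 CPM for covariation used a prior count of 2.

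Alternatives were DESeq2 1.42.0, limma-voom (limma 3.58.1), RLE factors, no low-count filter, at least 1 CPM in 7 libraries, only the compared groups, a term for the replicate number, a sex term (female where Xist exceeded 50 CPM), a depth minimum of 5 M, and every library left out in turn. Fits within each sex class were added after seeing the data. Over 84 pairs of libraries within groups the chi-square per gene was 15.2 to 248.8, so none was a duplicate.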

Additional observations from a re-analysis of the deposited data

Results flagged for a closer look

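In groups of 7 libraries, 7 of 33 sets of values (a gene in a group) had 1 library far from the rest by Dixon's criterion, where chance flags about 1 set in 20 if values are normally distributed. These values are skewed and often near 0, so that the expected number of such sets is not known here. Lgr5-high cystine replicate 7 was far above the others for Dclk1 (6.58 CPM, next 2.58) and Trpm5 (5.52 CPM, next 1.75). Pou2f3 stood out in Lgr5-high cystine replicate 1 (4.07 CPM, next 1.58) and Lgr5-low control replicate 1 (7.59 CPM, next 3.14). Gfi1b stood out in Lgr5-low cystine replicate 2 (5.13 CPM, next 1.07), and Alox5ap in Lgr5-low cystine replicate 1 (120 CPM, next 61.8). Il25 had 0.997 CPM in Lgr5-high cystine replicate 4 and 0 in the other 6 libraries of the group, a pattern that meets the criterion whatever the level.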

How the results depend on the processing

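In the settings run and over 28 left-out libraries, the averaged population change of Dclk1 lost its call within the male class and nowhere else. A fit of only the compared groups is the same as the reported one for the averaged and the difference contrasts, and was not run there. Over the diets together, 4 genes passed with DESeq2 and with a sex term (Dclk1, Trpm5, Rgs13 and Alox5ap), 1 within the female class, 0 within the male class, and 2 to 4 without 1 library, 4 without Lgr5-high control replicate 1. On cystine diet the count was 2 with limma-voom (Dclk1 and Rgs13), 0 with no low-count filter, 0 without libraries under 5 M counts, 0 within either sex class, and 0 to 2 without 1 library. On control diet it was 1 with limma-voom and 0 without any 1 library. Diet and difference counts were 0 throughout. The cause of these changes was not tested.

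The labels do not say what replicate numbers mark, and whether they pair libraries of 1 animal is not known. Same-numbered Lgr5-high and Lgr5-low libraries correlated at 0.07 to 0.24 on control diet (4 of 7 best with their own number) and at -0.08 to 0.17 on cystine diet (3 of 7), above the median of other numbers in 7 of 7 and 6 of 7 pairs, and had the same sex class in 7 of 7 pairs on each diet. Since not every pair was over 0.1, the fit without pairing is the one reported. That cut does not settle whether libraries are paired. If the numbers do pair libraries, the reported p-values leave the pairing out. With the number as a replicate block, 1 gene passed on cystine diet, Dclk1 (adjusted p = 0.0239) and no longer Trpm5 (0.0671), and Rgs13 passed over both diets (0.0223). The block is a term for the replicate number and so joins libraries of both diets. Replicate 3 was of the male class on control and of the female class on cystine diet, in both populations. Over all genes the block gave 409 calls on control diet and 453 on cystine diet.

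Changes of sign befell only results that had not passed. Between populations, Ptgs1 turned on control diet with limma-voom (-0.10), on cystine diet within the female class (0.45), and over both diets with limma-voom (-0.20), without libraries under 5 M counts (-0.38), within the male class (-0.63) and without 1 library (-0.13 to 0.19). Gfi1b turned within the female class on control diet (0.37) and over both diets (0.0087), and without 1 library on cystine diet (-1.91 to 0.17). Over both diets Pik3r5 turned within the male class (0.15) and Pou2af3 within the female class (-0.26). In the diet comparison of Lgr5-high cells, Gfi1b turned with limma-voom (-0.21), the block (-0.0404) and without libraries under 5 M counts (-0.27), as did Rgs13 without them (0.13). In that of Lgr5-low cells the turns were Avil with limma-voom (0.25), sex term (0.0246) and without those libraries (0.13), Gfi1b with limma-voom (0.26), block (0.22) and without those libraries (0.55), Trpm5 (-0.0655) and Rgs13 (0.0123) with limma-voom, Rgs13 with a sex term (0.11) and Alox5ap without those libraries (-0.14). In the difference of diet effects, Gfi1b turned with limma-voom (-0.48), block (-0.55) and without those libraries (-0.82), and Rgs13 without them (0.30). Without 1 library, sign changes in the Lgr5-high diet change gave ranges of -0.53 to 1.18 for Gfi1b, -0.77 to 0.59 for Pou2f3 and -0.40 to 0.11 for Rgs13. In the Lgr5-low one they were -0.32 to 0.33 for Alox5ap, -0.43 to 0.17 for Avil, -1.34 to 0.58 for Gfi1b, -0.87 to 0.41 for Pou2f3 and -0.17 to 0.13 for Rgs13. In the difference they were -0.77 to 0.0854 for Avil, -0.33 to 1.70 for Gfi1b, -0.43 to 0.97 for Pou2f3 and -0.38 to 0.14 for Rgs13.

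Over all genes, 225 passed on control diet (31 to 800 in other settings, 124 to 456 without 1 library), 330 on cystine diet (108 to 910, 169 to 413), 1100 over both diets (290 to 2375, 891 to 1497) and 21 for diet in Lgr5-high cells (0 to 123, 7 to 41). The wider list gave 7 calls of 40 tested, 11 of 52 with DESeq2, 14 of 40 with limma-voom and 1 of 39 within the male class. The calls over all genes in these settings were 1100, 1595, 2375 and 290. The shallowest library reads 3 counts as 1.11 CPM, which limits Gfi1b, Pou2f3 and Il25 most.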

Other observations

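Of the wider tuft cell list 14 genes were too low to test. Tas1r1 and Gnb3, parts of the taste receptor cascade, had 0 counts in all 28 libraries. Gnat3, the taste G protein gustducin, averaged 0.326 ± 0.607 CPM in Lgr5-high and 0.299 ± 0.607 CPM in Lgr5-low cells, and the succinate receptor gene Sucnr1 0.227 ± 0.372 and 0.547 ± 0.721 CPM (SD, n = 14 each). Chat, the enzyme of acetylcholine synthesis, averaged 0.00355 ± 0.0133 CPM in Lgr5-high and 0.122 ± 0.262 CPM in Lgr5-low cells. Ptgs2, which encodes cyclooxygenase 2, averaged 0.0213 ± 0.0797 and 0.0429 ± 0.125 CPM.

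The 3 Lgr5-high control libraries of the male class had 0 counts of Gfi1b, whereas the median of the 4 of the female class was 0.698 CPM. In Lgr5-low control libraries the order was the other way, with medians of 2.19 CPM in the male class and 0.281 CPM in the female class. Gfi1b had 0 counts in 12 of the 28 libraries. Rgs13 and Alox5ap, with more counts, separated by class in both Lgr5-low groups, higher in the male class. On cystine diet Rgs13 ran from 107.6 to 148 against 64.4 to 94.4 CPM, and Alox5ap from 61.8 to 120 against 26.3 to 44.1 CPM. On control diet the lowest male and highest female levels were 95.2 and 90.6 CPM, and 60.1 and 37.4 CPM. In both Lgr5-high groups the classes overlapped for Rgs13 and Alox5ap. These patterns were seen after the fact and were not tested.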
